A study of Mus musculus with 9 samples.

Results

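Open chromatin was examined around 31 mouse genes of the semaphorin guidance system, made up of 20 semaphorins, 9 plexins and 2 neuropilins, out of 22380 protein-coding genes. The genes were chosen by name, and for each gene every ATAC-seq peak was counted whose midpoint lay in the gene body or within 20 kb of it (mm9). A peak within 1 kb of any transcription start site was called a promoter peak, and every other peak a distal peak. No pair of the 31 windows overlapped.

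Semaphorins are secreted or membrane-bound guidance ligands. Plexins are their receptors, and neuropilins are co-receptors that hold the secreted class 3 ligands on plexin A receptors and also bind VEGF. In the embryonic pharynx and outflow tract this system is known for guiding cardiac neural crest cells and for patterning vessels, with Sema3c, Plxna2, Plxnd1 and the neuropilins among its best known members.

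The study sorted live GFP-positive cells of Swiss Webster embryos at E9.5 and listed accessible sites by ATAC-seq, which cuts open DNA with a transposase, in 3 groups of 3 libraries. Tbx1-Cre Ctrl cells came from Tbx1Cre;Rosa26-GFPflox/+ embryos, in which Cre inserted into Tbx1 marks the Tbx1 lineage of mesoderm, endoderm and ectoderm and itself takes away 1 copy of Tbx1. Tbx1-Cre cKO cells came from Tbx1Cre/flox;Rosa26-GFPflox/+ embryos, in which the other copy was also lost in that lineage. Mesp1-Cre Ctrl cells came from Mesp1Cre;Rosa26-GFPflox/+ embryos, in which Mesp1-Cre marks cells descended from early mesoderm. Every group carried the GFP reporter and a Cre allele, and each library was made from pooled embryos. The labels place the heart in the dissected tissue, whereas the methods state that it was left out.

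The peak lists differed in length, and this touches every count given here. They held 42650, 25485 and 30535 peaks in Mesp1-Cre Ctrl, 49490, 43298 and 47013 in Tbx1-Cre Ctrl and 29251, 24042 and 19772 in Tbx1-Cre cKO (libraries 1, 2 and 3, the order used throughout). The length of Mesp1-Cre Ctrl library 1 is not among those in the study's sample table, while those of the other libraries are. Distal peaks made up 47.0 to 62.2%, 63.9 to 66.1% and 37.0 to 50.7% of the lists, respectively. The lists carry no read counts, so sequencing depth is unknown, and a missing peak does not show closed chromatin. Around Tbx1 itself 2, 2 and 2 peaks were listed in Mesp1-Cre Ctrl, 5, 4 and 4 in Tbx1-Cre Ctrl and 1, 0 and 0 in Tbx1-Cre cKO, so the Tbx1-Cre groups did not overlap there. Of 10 cardiopharyngeal mesoderm markers, 8 had a promoter peak in all 3 Tbx1-Cre Ctrl libraries, 5 in all 3 Mesp1-Cre Ctrl libraries and 5 in all 3 Tbx1-Cre cKO libraries, and Nkx2-5 had none in either Tbx1-Cre group. Of the other lists, a promoter peak in all 3 Tbx1-Cre Ctrl libraries was seen at 2 of 5 cardiomyocyte, 2 of 5 otic, 2 of 5 neural crest, 2 of 6 endothelial, 0 of 7 pharyngeal epithelial and 0 of 4 blood markers. Myl7 and Tnnt2 of cardiomyocytes, Cldn6 of epithelium, Oc90 of the otic vesicle, Foxd3, Sox10 and Tcfap2b of neural crest, Cdh5, Pecam1 and Tie1 of endothelium and Gata1 and Klf1 of blood had no promoter peak in any library. Summed distal peaks of the mesoderm markers were 19 to 28 in Tbx1-Cre Ctrl against 7 to 16 in Tbx1-Cre cKO. Those of 5 neural crest markers were 12 to 15 against 4 to 6, those of 5 otic markers 12 to 17 against 5, those of 7 pharyngeal epithelial markers 11 to 16 against 8 to 11, those of 5 cardiomyocyte markers 6 to 14 against 2 to 4, those of 6 endothelial markers 9 to 13 against 2 to 6 and those of 4 blood markers 4 to 6 against 3. The part of list length and of cell composition in the results that follow was not tested, and fewer cells with an open site cannot be told apart from a site less open in each cell.

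Across the 31 windows, distal peaks were fewest in Tbx1-Cre cKO and most numerous in Tbx1-Cre Ctrl. There were 142, 124 and 130 in Tbx1-Cre Ctrl, 116, 48 and 64 in Mesp1-Cre Ctrl and 58, 44 and 28 in Tbx1-Cre cKO. Neither of the other groups overlapped with Tbx1-Cre Ctrl, while Mesp1-Cre Ctrl overlapped with Tbx1-Cre cKO. As a share of each library's own distal list, however, the windows held 0.419 to 0.448% in Tbx1-Cre Ctrl, 0.401 to 0.438% in Mesp1-Cre Ctrl and 0.383 to 0.430% in Tbx1-Cre cKO, and all 3 ranges overlapped. The plot of window peaks against list length shows the 9 libraries in the same order on both axes.

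**Figure D1:**
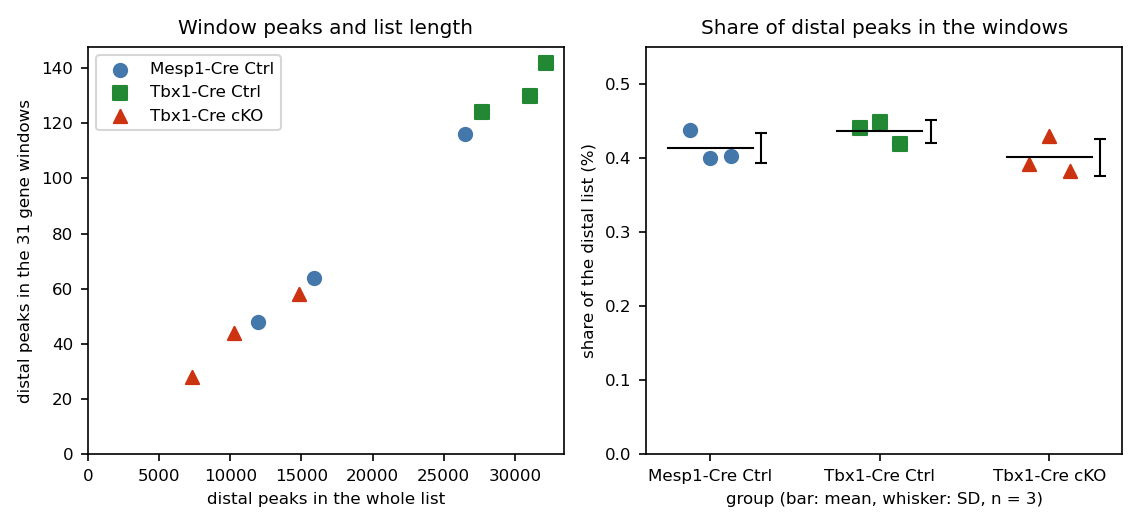
Distal peaks in the 31 gene windows. Left, number in the windows against number in the whole list, 1 point per library, coloured by group. Right, the windows' share of each distal list in percent, with the mean (bar) and SD (whisker) of 3 libraries. The counts range from 28 to 142, whereas the shares range from 0.383 to 0.448%.

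Individual accessible regions were compared after the 9 lists were merged wherever peaks touched or overlapped. The windows held 222 distal regions, of which 158 were intronic, 30 upstream of the gene, 25 downstream and 9 exonic. Sema5a and Sema6d each had 20, Plxna2 had 18, Plxna4 and Nrp2 each had 17, and Sema4f, Plxna3 and Plxnb3 had 0. Only 12 of the 222 carried a peak in all 9 libraries, against 5.99% of all distal regions, and 68 (30.6%) were listed in a single library, against 37.8% of all.

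Of 78 distal regions that had a peak in every Tbx1-Cre Ctrl library, 26 had none in any Tbx1-Cre cKO library, or 33.3% against 27.8% of all such regions. Against Mesp1-Cre Ctrl the number was 24, or 30.8% against 24.3%. In the other direction, 4 of 34 regions with a peak in every Mesp1-Cre Ctrl library had none in Tbx1-Cre Ctrl (11.8% against 6.46%), and 10 of 34 had none in Tbx1-Cre cKO (29.4% against 21.7%). Of 15 regions listed in every Tbx1-Cre cKO library, 0 were missing from Tbx1-Cre Ctrl (0.156% of all such regions) and 1, in an intron of Sema6d, was missing from Mesp1-Cre Ctrl (3.89%). These shares were not tested, because regions of a library are not replicates, and they were a few percentage points above those of all regions in the first 4 patterns. Without Tbx1-Cre cKO library 1 the count of 26 became 41 (background 44.5%), and the count of 24 became 40 without Mesp1-Cre Ctrl library 1 (background 39.5%) and 37 without Tbx1-Cre Ctrl library 1 (33.5%). The count of 4 became 10 without Mesp1-Cre Ctrl library 2 (13.8%) and 7 without Tbx1-Cre Ctrl library 1 (11.6%). For the 37 and the 10 the library left out was of the group with the peaks. More regions could then be listed throughout that group, so these counts are not out of 78 and 34.

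**Figure D2:**
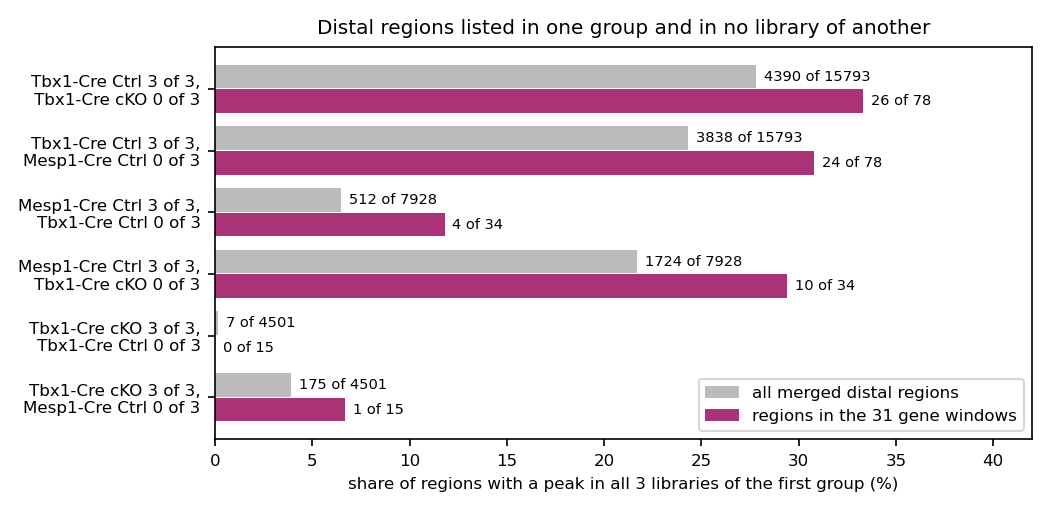
Share of merged distal regions, in percent, that had a peak in all 3 libraries of the group named first and in none of the group named second. Grey bars are all regions and purple bars those in the 31 windows, with counts beside each bar. The largest count in the windows is 26 of 78, for regions listed in Tbx1-Cre Ctrl and missing in Tbx1-Cre cKO.

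The 26 regions missing in Tbx1-Cre cKO were spread over 16 genes, with 4 each at Sema3f, the ligand that signals through Nrp2, and Plxna4, a receptor for class 3 and class 6 ligands. The middle 300 bases of 3 of the widest are shown, since they carry the contrast between the Tbx1-Cre groups. At Plxna2 an intronic region 35629 bp from the nearest start of the gene (chr1:196506250-196507108) was listed in all 6 control libraries and in no Tbx1-Cre cKO library. Its peaks were 832, 501 and 639 bp wide in Mesp1-Cre Ctrl and 336, 507 and 599 bp wide in Tbx1-Cre Ctrl. An intronic region of Sema3f (chr9:107601554-107602789) followed the same pattern, with widths of 571, 362 and 432 bp in Mesp1-Cre Ctrl and 1065, 620 and 275 bp in Tbx1-Cre Ctrl. The widest region listed in Tbx1-Cre Ctrl alone lay in an intron of Sema5a (chr15:32362732-32363681), a transmembrane ligand with thrombospondin repeats, and its peaks were 725, 514 and 597 bp wide. The bases printed are chr1:196506529-196506828, chr9:107602022-107602321 and chr15:32363057-32363356 on the plus strand of mm9 (NCBIM37), with matches to any of 6 transcription factor motifs in capitals.
Plxna2 intronic region: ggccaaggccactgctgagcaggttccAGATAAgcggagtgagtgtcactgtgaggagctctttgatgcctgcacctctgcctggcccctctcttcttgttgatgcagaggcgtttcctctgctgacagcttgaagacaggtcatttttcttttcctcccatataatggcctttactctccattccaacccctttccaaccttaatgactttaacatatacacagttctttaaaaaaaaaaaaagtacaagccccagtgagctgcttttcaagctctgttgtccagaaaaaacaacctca
Sema3f intronic region: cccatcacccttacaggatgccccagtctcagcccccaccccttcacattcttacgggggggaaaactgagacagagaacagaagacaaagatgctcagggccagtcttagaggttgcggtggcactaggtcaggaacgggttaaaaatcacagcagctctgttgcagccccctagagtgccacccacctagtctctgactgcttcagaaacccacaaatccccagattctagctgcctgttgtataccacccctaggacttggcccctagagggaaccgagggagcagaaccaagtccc
Sema5a intronic region: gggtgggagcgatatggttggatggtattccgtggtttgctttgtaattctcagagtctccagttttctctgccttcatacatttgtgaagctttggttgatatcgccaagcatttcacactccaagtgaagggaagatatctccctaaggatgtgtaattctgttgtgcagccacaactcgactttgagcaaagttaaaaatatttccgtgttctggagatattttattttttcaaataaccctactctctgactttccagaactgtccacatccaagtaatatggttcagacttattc
The Plxna2 bases held 1 match to the GATA letters, and those of Sema3f and Sema5a held no match to any motif. An intronic Nrp2 region (chr1:62859253-62860242) and an intronic Plxna4 region (chr6:32277956-32278629) were likewise in all 3 Tbx1-Cre Ctrl libraries and no Tbx1-Cre cKO library, and were found in 2 and 1 of the Mesp1-Cre Ctrl libraries.

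The 4 regions listed in every Mesp1-Cre Ctrl library and in no Tbx1-Cre Ctrl library were 2 at Sema3c and 1 each at Sema6d and Plxna4, and none of them was listed in Tbx1-Cre cKO. Sema3c encodes the secreted ligand that attracts neural crest cells into the outflow tract. One of its regions was intronic (chr5:17229904-17230420) with peaks of 498, 381 and 321 bp, and the other lay 17858 bp upstream (chr5:17062044-17062438) with peaks of 286, 343 and 201 bp. The Sema6d region was intronic (chr2:124060834-124061814) with peaks of 241, 199 and 860 bp. The bases shown are chr5:17230012-17230311, chr5:17062091-17062390 and chr2:124061174-124061473.
Sema3c intronic region: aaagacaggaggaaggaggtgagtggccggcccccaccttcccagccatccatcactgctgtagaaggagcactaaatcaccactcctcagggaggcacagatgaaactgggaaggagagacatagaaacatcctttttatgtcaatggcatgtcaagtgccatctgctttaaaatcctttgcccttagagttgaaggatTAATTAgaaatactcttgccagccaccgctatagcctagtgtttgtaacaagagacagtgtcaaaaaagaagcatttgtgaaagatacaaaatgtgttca
Sema3c upstream region: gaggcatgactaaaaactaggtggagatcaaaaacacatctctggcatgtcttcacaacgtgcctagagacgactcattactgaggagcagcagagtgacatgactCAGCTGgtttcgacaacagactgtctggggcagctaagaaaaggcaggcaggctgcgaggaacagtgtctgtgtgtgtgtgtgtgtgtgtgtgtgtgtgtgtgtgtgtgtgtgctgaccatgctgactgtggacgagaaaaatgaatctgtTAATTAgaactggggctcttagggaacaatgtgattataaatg
Sema6d intronic region: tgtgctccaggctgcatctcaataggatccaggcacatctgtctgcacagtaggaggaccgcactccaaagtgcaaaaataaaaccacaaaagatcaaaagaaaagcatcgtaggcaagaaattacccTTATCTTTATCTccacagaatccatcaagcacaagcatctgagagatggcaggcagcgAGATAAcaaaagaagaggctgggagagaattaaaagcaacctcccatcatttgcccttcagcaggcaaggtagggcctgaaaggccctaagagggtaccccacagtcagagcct
Both Sema3c stretches held 1 match to the homeobox letters, the upstream one also held 1 E-box match, and the Sema6d stretch held 3 GATA matches. For contrast, the Nrp1 region 1667 bp upstream of the gene (chr8:130880859-130881753) was listed in all 9 libraries, with widths of 480, 655 and 645 bp in Mesp1-Cre Ctrl, 840, 766 and 788 bp in Tbx1-Cre Ctrl and 757, 489 and 398 bp in Tbx1-Cre cKO. Its middle bases (chr8:130881156-130881455) held no motif match and were 68.0% G and C, against 44.7 to 47.7% in the 3 stretches above.
Nrp1 upstream region: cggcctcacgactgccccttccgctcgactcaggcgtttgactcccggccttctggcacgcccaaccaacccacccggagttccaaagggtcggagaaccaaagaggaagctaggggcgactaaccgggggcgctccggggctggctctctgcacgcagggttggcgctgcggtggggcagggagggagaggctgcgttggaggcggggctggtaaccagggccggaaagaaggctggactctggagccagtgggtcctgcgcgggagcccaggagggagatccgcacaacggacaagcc

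Motif letters were looked for on both strands in the middle 300 bases of each region. The T-box letters AGGTGTGA were in 3 of the 222 regions (1.35%, against 1.04% of 55114 distal regions), at Sema3d, Sema3f and Sema6d, and in 0 of the 26 missing in Tbx1-Cre cKO (0.797% of all regions of that pattern). The GATA letters AGATAA were in 12.6% (against 15.2%), the E-box CAGCTG in 26.6% (25.3%), the forkhead letters TGTTTAC in 5.41% (5.45%), the homeobox letters TAATTA in 8.56% (6.61%) and the SP letters GGGCGG in 10.4% (11.4%). Among the 26 regions, 5 held GATA letters (19.2%, against 13.1% for that pattern across the genome) and 6 an E-box (23.1% against 27.2%). A match describes letters only, and some E-box and SP matches overlap each other.

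For single genes, the comparison of Tbx1-Cre cKO with Tbx1-Cre Ctrl asked which windows differ when Tbx1 is lost from its own lineage. Of 28 members with a distal peak in either group, 14 had fewer in every Tbx1-Cre cKO library than in every Tbx1-Cre Ctrl library. The mean was lower in all 28 members, as it was in 12454 of 14423 genes. Among 14423 genes the same non-overlap was seen in 20.3%, and among those with a mean of at least 2 distal peaks over the 9 libraries in 47.4%, where the members gave 13 of 17. A gene could pass that minimum through Tbx1-Cre Ctrl alone, so these counts are descriptions. No member had more distal peaks in every Tbx1-Cre cKO library (0.0693% of all genes did). With 3 libraries against 3 an exact two-sided permutation test has 20 relabellings and cannot go below 0.1, and each of the 14 reached that value (adjusted p = 0.492 over all genes).

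**Figure D3:**
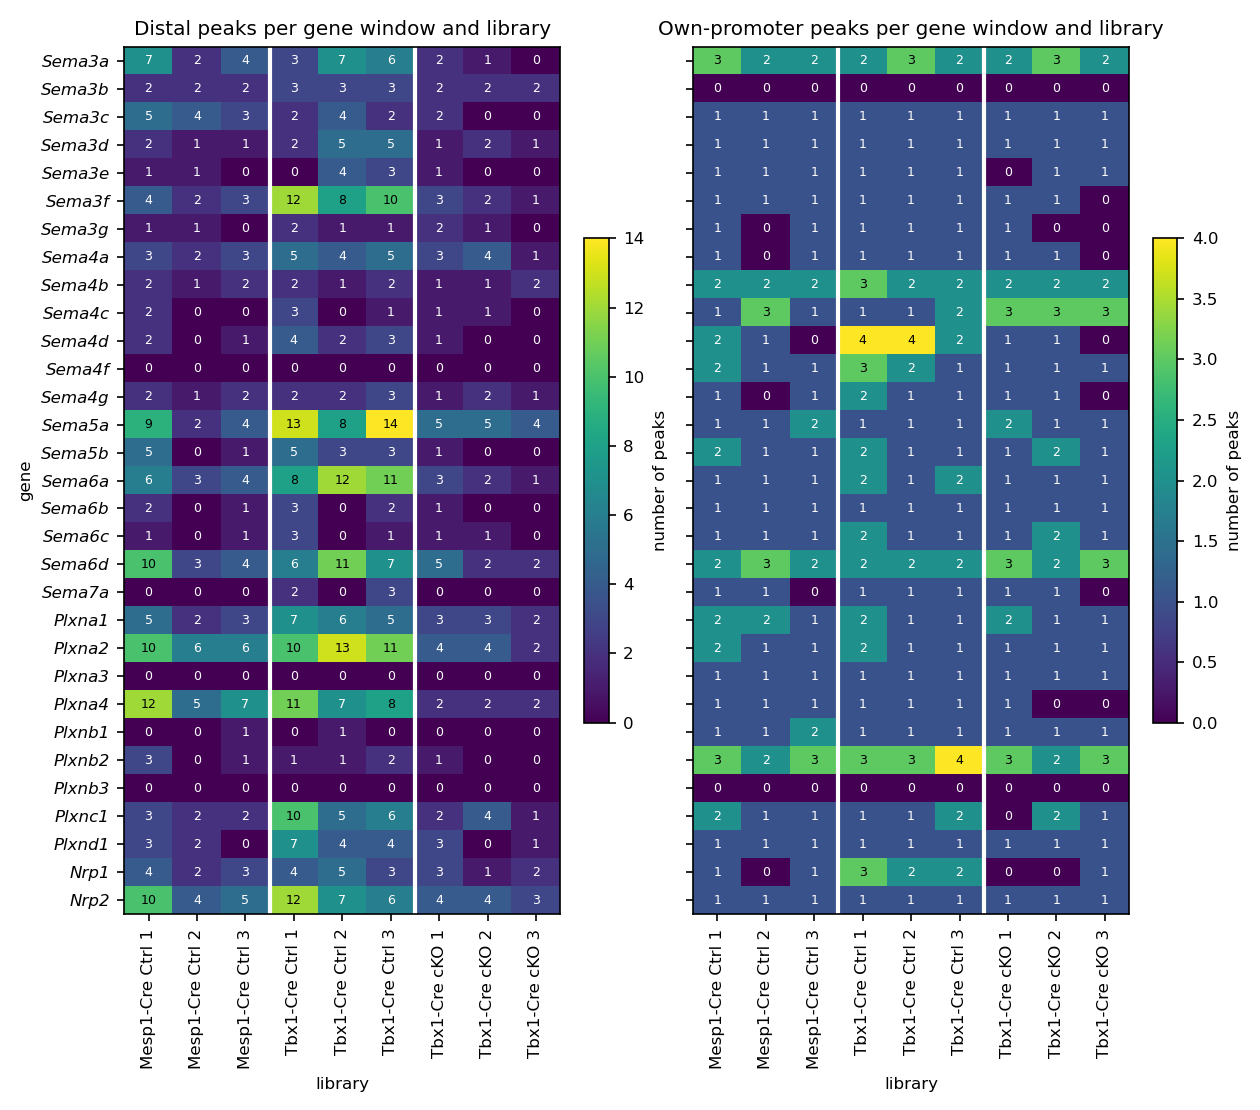
Number of distal peaks (left) and of promoter peaks at the gene's own start sites (right) for each of 31 genes (rows) in each of 9 libraries (columns), with the count printed in each cell and white lines between groups. Distal counts reach 14 at Sema5a in Tbx1-Cre Ctrl, and do not exceed 5 in Tbx1-Cre cKO.

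Among the secreted class 3 ligands, Sema3f had the most distal peaks in Tbx1-Cre Ctrl. There were 12, 8 and 10 distal peaks in Tbx1-Cre Ctrl, 4, 2 and 3 in Mesp1-Cre Ctrl and 3, 2 and 1 in Tbx1-Cre cKO, so both other groups lay wholly below Tbx1-Cre Ctrl. It was also the most densely covered window, with 14.5 distal peaks per 100 kb on average in Tbx1-Cre Ctrl. Relative to list length, limma gave a log2 difference of -1.18 (SE 0.294, adjusted p = 0.0881) for Tbx1-Cre cKO and -1.07 (SE 0.294, adjusted p = 0.227) for Mesp1-Cre Ctrl, each against Tbx1-Cre Ctrl. Without Tbx1-Cre cKO library 1 the first of these passed 0.05 (-1.33, adjusted p = 0.0445), as did 4.74% of all tested genes.

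Sema3a, which repels growing axons through Nrp1, had 3, 7 and 6 distal peaks in Tbx1-Cre Ctrl, 7, 2 and 4 in Mesp1-Cre Ctrl and 2, 1 and 0 in Tbx1-Cre cKO. Its Tbx1-Cre groups did not overlap, while the control groups did. Its log2 difference for Tbx1-Cre cKO against Tbx1-Cre Ctrl relative to list length was -1.22 (SE 0.492, limma adjusted p = 0.185). Sema3b, another ligand of neuropilins, had 3 distal peaks in every Tbx1-Cre Ctrl library and 2 in each of the other 6. Because those lists are shorter, its count per 10000 peaks was higher in Tbx1-Cre cKO than in Tbx1-Cre Ctrl, by 0.197. Sema3c had 2, 4 and 2 in Tbx1-Cre Ctrl, 5, 4 and 3 in Mesp1-Cre Ctrl and 2, 0 and 0 in Tbx1-Cre cKO. It was the only member with a higher mean in Mesp1-Cre Ctrl than in Tbx1-Cre Ctrl, where the groups overlapped (log2 difference 1.08 relative to list length, SE 0.514, adjusted p = 0.474 by limma). Sema3d, Sema3e and Sema3g had between 0 and 5 distal peaks in any library, with overlapping groups in all 3 comparisons.

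Of the membrane-bound ligands, Sema5a and Sema6a had the most distal peaks in Tbx1-Cre Ctrl. Sema5a had 13, 8 and 14 distal peaks in Tbx1-Cre Ctrl, 9, 2 and 4 in Mesp1-Cre Ctrl and 5, 5 and 4 in Tbx1-Cre cKO. Its Tbx1-Cre groups did not overlap, but relative to list length the log2 difference was -0.25 (SE 0.355). Sema6a, a transmembrane ligand of plexins A2 and A4, had 8, 12 and 11 in Tbx1-Cre Ctrl, 6, 3 and 4 in Mesp1-Cre Ctrl and 3, 2 and 1 in Tbx1-Cre cKO, and Tbx1-Cre Ctrl was above both groups without overlap. Its log2 difference relative to list length was -1.23 for Tbx1-Cre cKO (SE 0.315, limma adjusted p = 0.0945) and -0.66 for Mesp1-Cre Ctrl (SE 0.315, limma adjusted p = 0.474).

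Sema6d, a ligand known from the developing heart, had 6, 11 and 7 distal peaks in Tbx1-Cre Ctrl, 10, 3 and 4 in Mesp1-Cre Ctrl and 5, 2 and 2 in Tbx1-Cre cKO. Sema5b had 5, 3 and 3, then 5, 0 and 1, then 1, 0 and 0 in the same order. For Tbx1-Cre cKO against Tbx1-Cre Ctrl its log2 difference relative to list length was -1.54 (SE 0.594, limma adjusted p = 0.172), and with a flank of 50 kb it was -2.29 (SE 0.434, limma adjusted p = 0.04995). Sema4d, the ligand of plexin B1, had 4, 2 and 3, then 2, 0 and 1, then 1, 0 and 0. In these 3 genes only the Tbx1-Cre groups were apart. Sema4a, a class 4 ligand with roles in immune cells and the retina, had 5, 4 and 5 in Tbx1-Cre Ctrl, 3, 2 and 3 in Mesp1-Cre Ctrl and 3, 4 and 1 in Tbx1-Cre cKO, and here only the control groups were apart. Sema4b, Sema4c, Sema4g, Sema6b, Sema6c and the GPI-anchored Sema7a had 0 to 3 in each library, with overlap in each comparison, and Sema4f had 0 in all 9.

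The receptors with many distal peaks were Plxna2, a receptor of migrating neural crest, and Plxna4. Plxna2 had 10, 13 and 11 in Tbx1-Cre Ctrl, 10, 6 and 6 in Mesp1-Cre Ctrl and 4, 4 and 2 in Tbx1-Cre cKO. Plxna4 had 11, 7 and 8 in Tbx1-Cre Ctrl, 12, 5 and 7 in Mesp1-Cre Ctrl and 2, 2 and 2 in Tbx1-Cre cKO. For both genes Tbx1-Cre cKO was below both control groups without overlap, and the control groups overlapped. The log2 difference of Plxna4 relative to list length was -0.90 (SE 0.299, limma adjusted p = 0.131) against Tbx1-Cre Ctrl and -1.26 (SE 0.299, limma adjusted p = 0.0853) against Mesp1-Cre Ctrl. That of Plxna2 was -0.72 (SE 0.298, limma adjusted p = 0.192) and -0.63 (SE 0.298, limma adjusted p = 0.385).

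Plxna1 had 7, 6 and 5 distal peaks in Tbx1-Cre Ctrl, 5, 2 and 3 in Mesp1-Cre Ctrl and 3, 3 and 2 in Tbx1-Cre cKO. Plxnc1, the receptor of Sema7a, had 10, 5 and 6, then 3, 2 and 2, then 2, 4 and 1. Plxnd1, the endothelial receptor of Sema3e, had 7, 4 and 4, then 3, 2 and 0, then 3, 0 and 1. Tbx1-Cre Ctrl was above Tbx1-Cre cKO without overlap in these 3 receptors and above Mesp1-Cre Ctrl in Plxnc1 and Plxnd1. For Tbx1-Cre cKO relative to list length, the log2 differences of Plxna1, Plxnc1 and Plxnd1 were -0.09 (SE 0.283), -0.54 (SE 0.385) and -0.999 (SE 0.725), and their limma adjusted p-values were 0.879, 0.437 and 0.442. The B-type plexins had 0 to 3 distal peaks in each library, and Plxna3 and Plxnb3 had 0 in all 9.

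The co-receptors differed from each other in their counts. Nrp2, which binds Sema3f and VEGF-C, had 12, 7 and 6 distal peaks in Tbx1-Cre Ctrl, 10, 4 and 5 in Mesp1-Cre Ctrl and 4, 4 and 3 in Tbx1-Cre cKO, and its Tbx1-Cre groups did not overlap. Nrp1, which binds Sema3a and VEGF-A, had 4, 5 and 3, then 4, 2 and 3, then 3, 1 and 2, with overlap in every comparison. Relative to list length the log2 difference of Tbx1-Cre cKO against Tbx1-Cre Ctrl was -0.08 for Nrp2 (SE 0.319) and 0.04 for Nrp1 (SE 0.354). The difference between the 2 genes was not tested.

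The list-length scaling was then applied to all 2579 genes with a mean of at least 2 distal peaks, of which 17 were members. For Tbx1-Cre cKO against Tbx1-Cre Ctrl, limma called 0 of 17 members at an adjusted p under 0.05, and 0.271% of all tested genes were called (7 lower and 0 higher). An unadjusted p under 0.05 was seen for 6 of the 17 members and 21.8% of all tested genes. The median log2 difference was -0.54 over the members and -0.16 over all genes. It was 0.05 against 0.43 when scaled by the distal list alone, where 15 genes were called lower and 134 higher, and -1.49 against -1.11 with no scaling, where 778 were called lower and 0 higher, so the sign of the members' median depended on the scaling. The members' median was 0.379 lower than that of all genes under each of these scalings, because a scaling shifts all genes of a library alike. Standard errors changed as well. Between scaling by the list and by the distal list they went from 0.309 to 0.398 for Sema3b and from 0.492 to 0.441 for Sema3a. No scaling put 8 members past the threshold, among them Sema3f, Sema6a, Plxna2 and Plxna4, and 30.2% of all tested genes. Leaving out Tbx1-Cre cKO library 1 put 1 member past it, Sema3f, and 4.74% of all tested genes.

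For Mesp1-Cre Ctrl against Tbx1-Cre Ctrl, which sets the Mesp1 lineage beside the mixed Tbx1 lineage, 6 of 28 members had fewer distal peaks in every Mesp1-Cre Ctrl library, against 9.6% of 14980 genes. These were Sema3b, Sema3f, Sema4a, Sema6a, Plxnc1 and Plxnd1. Among genes with a mean of at least 2 distal peaks the members gave 6 of 17, against 19%. Here too a gene could pass that minimum through Tbx1-Cre Ctrl alone, so these counts are descriptions. No member had more distal peaks in every Mesp1-Cre Ctrl library (0.441% of all genes). The smallest exact permutation p of 0.1 had an adjusted value of 0.996. Without Mesp1-Cre Ctrl library 1, which had the longest list of its group, 14 members were below without overlap, against 22.2% of genes. Relative to list length limma called 0 of 17 members and 0.116% of all genes, with 2 members and 10.2% of all genes at an unadjusted p under 0.05.

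For Tbx1-Cre cKO against Mesp1-Cre Ctrl, 3 of 27 members had fewer distal peaks in every Tbx1-Cre cKO library, namely Sema3c, Plxna2 and Plxna4, against 5.93% of 12926 genes. Of the members with a mean of at least 2, these were 3 of 17, against 10.6%. These counts are descriptions as well, since a gene could pass that minimum through the control groups alone. No member was higher in every Tbx1-Cre cKO library (0.317% of all genes). Sema3c had a log2 difference of -1.95 relative to list length (SE 0.514, limma adjusted p = 0.119). It became -2.59 without Tbx1-Cre cKO library 1 (limma adjusted p = 0.0141), where 3.06% of all tested genes were called. With all libraries, limma called 0 of 17 members and 0.659% of all genes, with 3 members and 13.8% of all genes at an unadjusted p under 0.05. The 3 members below without overlap became 6 without Mesp1-Cre Ctrl library 2 (17.9% of genes) or without Tbx1-Cre cKO library 1 (13% of genes). These comparisons share libraries in pairs, so they are not independent of each other.

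Promoter peaks were listed far more evenly than distal peaks. In Tbx1-Cre Ctrl, 29 of 31 members had a peak at their own promoter in all 3 libraries, against 58.1% of all genes, and in Mesp1-Cre Ctrl 23 did, against 54.4%. In Tbx1-Cre cKO the number was 19, against 49.9%. Promoter peaks of the members summed to 48, 40 and 40 in Tbx1-Cre Ctrl, 41, 33 and 34 in Mesp1-Cre Ctrl and 36, 36 and 30 in Tbx1-Cre cKO. Sema3b and Plxnb3 had no own promoter peak in any library. At Sema3b a distal site 3583 bp upstream (chr9:107514669-107515616) was listed in all 9 libraries, with widths from 532 to 935 bp, while Plxnb3 had neither a promoter nor a distal peak.

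The 10 members whose promoter peak was missing from at least 1 Tbx1-Cre cKO library were Sema3e, Sema3f, Sema3g, Sema4a, Sema4d, Sema4g, Sema7a, Plxna4, Plxnc1 and Nrp1. Of these, Sema3g, Sema4a, Sema4d, Sema4g, Sema7a and Nrp1 were also missing from 1 Mesp1-Cre Ctrl library each. Plxna4 had its promoter peak in all 6 control libraries and in 1 of 3 Tbx1-Cre cKO libraries. Nrp1 had 3, 2 and 2 promoter peaks in Tbx1-Cre Ctrl, 1, 0 and 1 in Mesp1-Cre Ctrl and 0, 0 and 1 in Tbx1-Cre cKO, although the site 1667 bp upstream was listed in every library. Tbx1-Cre cKO library 3, the shortest list, lacked a promoter peak at 9 of 31 members, and without it 24 members had one throughout the group.

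The width of the widest promoter peak was compared for 19 members that had one in all 9 libraries, each width taken relative to the median of its library. Plxna2 had the clearest contrast, with 1448, 1846 and 1790 bp in Tbx1-Cre Ctrl, 1029, 1155 and 716 bp in Mesp1-Cre Ctrl and 427, 583 and 280 bp in Tbx1-Cre cKO. The 3 groups did not overlap. Its log2 difference between Tbx1-Cre cKO and Tbx1-Cre Ctrl was -1.68 (SE 0.265, limma adjusted p = 0.0634), and it passed 0.05 with summed widths (-1.73, adjusted p = 0.0456), with widths not set relative to the median (-2.03, adjusted p = 0.0145) and without Mesp1-Cre Ctrl library 2 (-1.68, adjusted p = 0.0496).

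Sema4c, the ligand of plexin B2, had promoter peaks of 1994, 1894 and 1745 bp in Tbx1-Cre Ctrl, 1785, 591 and 1396 bp in Mesp1-Cre Ctrl and 591, 664 and 403 bp in Tbx1-Cre cKO. The Tbx1-Cre groups did not overlap, and the promoter was listed as 1, 1 and 2 peaks in Tbx1-Cre Ctrl but as 3 in each Tbx1-Cre cKO library. Its log2 difference was -1.44 (SE 0.308, limma adjusted p = 0.144), with an adjusted p of 0.0428 without Mesp1-Cre Ctrl library 2. When the widths of all its promoter peaks were summed, the difference was -0.19 (SE 0.144, limma adjusted p = 0.557). Nrp2 had 461, 614 and 816 bp in Tbx1-Cre Ctrl, 566, 486 and 481 bp in Mesp1-Cre Ctrl and 234, 326 and 217 bp in Tbx1-Cre cKO, which was below both control groups (log2 difference -0.91 against Tbx1-Cre Ctrl, SE 0.214, limma adjusted p = 0.178). Plxnd1 went the other way between the controls, with 459, 502 and 516 bp in Mesp1-Cre Ctrl against 360, 357 and 329 bp in Tbx1-Cre Ctrl (log2 difference 0.69, SE 0.141, limma adjusted p = 0.522).

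Over all 19 promoters limma called 0 members in any comparison. For Tbx1-Cre cKO against Tbx1-Cre Ctrl, 0.166% of 10874 genes were called, and an unadjusted p under 0.05 was seen for 6 of the 19 members and 12.9% of all genes. For Mesp1-Cre Ctrl against Tbx1-Cre Ctrl 0% of genes were called, and 2 members and 4.54% of all genes had an unadjusted p under 0.05. For Tbx1-Cre cKO against Mesp1-Cre Ctrl 0.0368% were called, and 4 members and 8.29% of all genes had such a p. Median promoter widths over all genes were 856 to 896 bp in Tbx1-Cre Ctrl, 698 to 848 bp in Mesp1-Cre Ctrl and 629 to 727 bp in Tbx1-Cre cKO, which is why widths were taken relative to them. With widths left as listed, the median log2 difference of all genes between the Tbx1-Cre groups was -0.33 and 3 of 19 members were called, Plxna2, Nrp2 and Sema4c, against 3.13% of all genes.

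**Figure D4:**
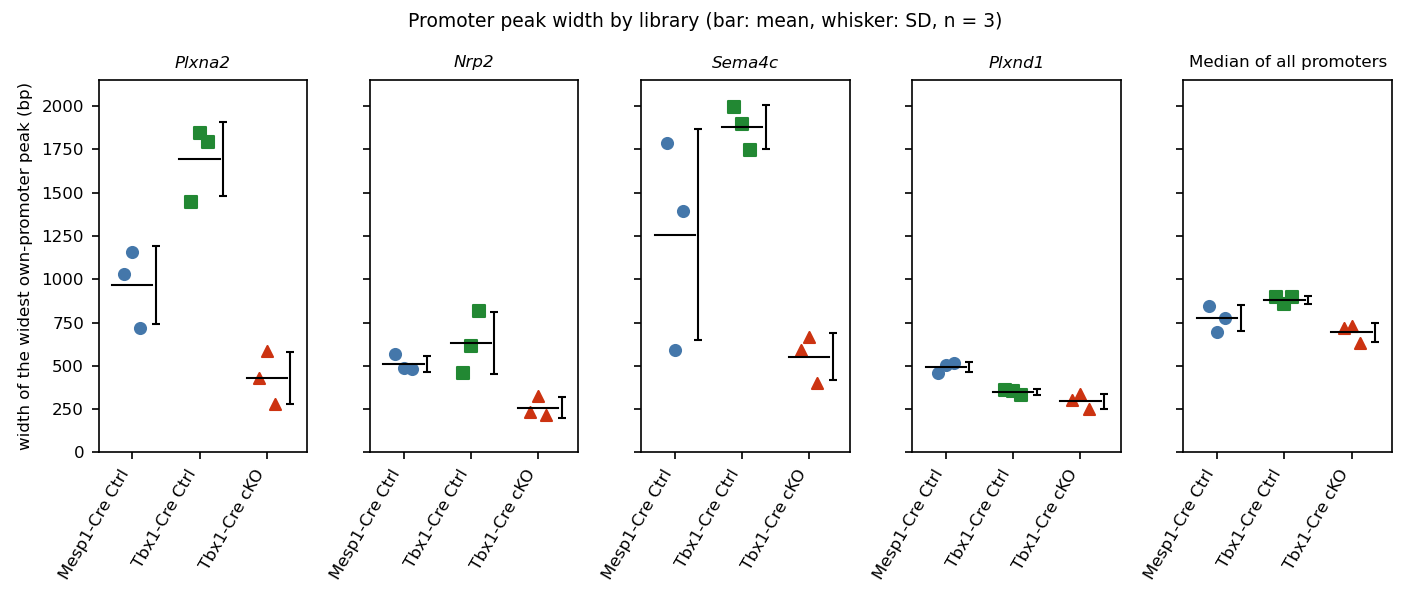
Width in bp of the widest promoter peak of Plxna2, Nrp2, Sema4c and Plxnd1 and the median over all genes, by group. Points are the 3 libraries, bars the mean and whiskers the SD. Plxna2 widths run from 1448 to 1846 bp in Tbx1-Cre Ctrl and from 280 to 583 bp in Tbx1-Cre cKO.

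Related gene lists were counted in the same way. Of 34 tested genes encoding semaphorin co-receptors and intracellular effectors, 9 had fewer distal peaks in every Tbx1-Cre cKO than in every Tbx1-Cre Ctrl library, and none had more. The corresponding counts were 8 of 20 for Eph receptors and ephrins, which guide cells by contact, and 10 of 17 for Slit, Robo and netrin genes, another guidance system. Against the 14 of 28 members and the 20.3% of all genes, the members lay between these lists. Among genes with a mean of at least 2 distal peaks, the lists gave 4 of 10, 6 of 8 and 8 of 10, respectively. The members gave 13 of 17 there, and all genes 47.4%. A gene could pass that minimum through Tbx1-Cre Ctrl alone, so these counts are descriptions as well. Mesp1-Cre Ctrl was below Tbx1-Cre Ctrl without overlap at 1 of 36 co-receptors and effectors, 2 of 20 Eph and ephrin genes and 5 of 17 Slit, Robo and netrin genes. The members gave 6 of 28 there, and all genes 9.6%. With a mean of at least 2 the lists gave 0 of 10, 1 of 8 and 2 of 10, the members 6 of 17 and all genes 19%. Tbx1-Cre cKO was below Mesp1-Cre Ctrl at 6 of 33, 1 of 19 and 3 of 17 genes of these lists, respectively, against 3 of 27 members and 5.93% of all genes. With a mean of at least 2 it was 2 of 10, 1 of 8 and 2 of 10, against 3 of 17 members and 10.6% of all genes.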

How the data were processed

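ATAC-seq was done on GFP-positive sorted cells in 9 libraries, 3 per group. Per the methods and labels, the authors trimmed reads with cutadapt, aligned them to mm9 with Bowtie2 2.3.4.3, kept unique concordant pairs, removed duplicates and mitochondrial reads, and ran MACS2 on each library by itself, without pooling. The deposited files hold the position of each peak alone (chromosome, start and end), with no score, count or coverage, so the number of peaks and their width were the measures used. The lists differed in detail: the narrowest peak was 199 bp and 2 mitochondrial peaks were present in each Mesp1-Cre Ctrl list, against 200 bp and 0 in each Tbx1-Cre list. The main text and the sample table of the study give different numbers of replicates, and its table numbers the Mesp1-Cre Ctrl libraries differently from the labels. All 9 lists were used here.

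Peaks were assigned by midpoint to gene bodies of the GENCODE annotation for NCBIM37 with 20 kb on each side, and were promoter peaks within 1 kb of a start site. Groups were compared per gene by a two-sided exact permutation test, by whether they overlapped, and by limma 3.58.1 (R 4.3.3) on log2((distal peaks + 0.5) per 10000 listed peaks) for genes with a mean of at least 2, and on log2 promoter peak width relative to the library median, with Benjamini-Hochberg adjustment over all genes tested. The added 0.5 shifts a fold most at genes with few peaks, and it weighs more in the shorter lists. A fold at such genes may therefore understate or overstate a difference. Nothing states that libraries came from separate litters, so p-values measure the spread between these libraries. The fits of distal peaks were tested on simulated counts drawn in proportion to list length. That test cannot show whether this scaling suits lists whose distal shares differ.

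The members, the related lists and the markers were chosen with earlier results of these data known. Genes named with every library were those whose groups did not overlap, the 5 with the highest mean in Tbx1-Cre Ctrl and those with no promoter peak. Others were named after their values were seen. Regions were named by mean peak width within each pattern. Same-numbered libraries did not deviate together throughout (correlations -0.0455 to 0.204), so the numbers were not taken as pairs. Correlations between libraries of other numbers ran from -0.136 to 0.0973. Between libraries numbered 1 they were 0.0569, 0.204 and 0.102, so a weak tendency there remains possible.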

Additional observations from a re-analysis of the deposited data

How the results depend on the processing

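Scaling, peak selection and single libraries each moved some counts. Members below Tbx1-Cre Ctrl without overlap in Tbx1-Cre cKO numbered 6 per 10000 listed peaks (12.7% of genes), 4 per 10000 distal peaks (8.58%) and 2 when each list was reduced to its 19772 widest peaks (2.31%). For Mesp1-Cre Ctrl they numbered 2 per 10000 distal peaks (6.15%) and 2 with equal lists (3.57%), and for Tbx1-Cre cKO below Mesp1-Cre Ctrl 5 per 10000 listed peaks (6.09%) and 1 with equal lists (3.43%). With equal lists, 12 members had a promoter peak in all 3 Tbx1-Cre Ctrl libraries (43.4% of genes), the region counts were 1 (missing in Tbx1-Cre cKO, 11% of all regions), 4 (missing in Mesp1-Cre Ctrl, 22%) and 2 (Mesp1-Cre Ctrl without Tbx1-Cre Ctrl, 16.5%), and 1 member was called in promoter width (0.146% of genes). With the widest 75% of peaks the last region count was 2 (7.05%) and 1 member, Plxna2, was called in Tbx1-Cre cKO against either control. In that setting 1.97% of genes were called against Tbx1-Cre Ctrl and 1.59% against Mesp1-Cre Ctrl. A flank of 50 kb called 1 member for Tbx1-Cre cKO against Tbx1-Cre Ctrl (0.549% of genes), and merging peaks within 500 bp called 1 against Mesp1-Cre Ctrl (0.728%). No scaling called 8 (30.2% of genes), widths not centred called 3 (3.13%) and summed widths 1 (0.221%).

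Some single differences between groups without overlap changed sign. With equal lists, the difference from Tbx1-Cre Ctrl was 0.333 distal peaks for Sema6d, Plxna4 and Plxnc1 in Tbx1-Cre cKO and 0.667 for Plxnc1 in Mesp1-Cre Ctrl. It was 0.197 per 10000 peaks for Sema3b in Tbx1-Cre cKO. Per 10000 distal peaks it was 1.02 for Sema3b, 0.762 for Sema5a, 0.578 for Plxna1 and 0.839 for Nrp2 in Tbx1-Cre cKO, and 0.234 for Sema3b and 0.0268 for Sema4a in Mesp1-Cre Ctrl. The cause was not tested. Among all values of single genes under the alternatives, 1606 kept their side of the threshold or of overlap, though not always their direction. Another 49 lost the call without changing sign, with a difference of exactly 0 in some of those for Sema3b, Sema4a, Sema4d, Plxna1 and Nrp2, and 59 gained one. Sign changes between groups that overlapped are not all listed. For Plxna1 in Tbx1-Cre cKO against Mesp1-Cre Ctrl the difference was -0.667 distal peaks. Per 10000 distal peaks it was 0.748, now without overlap.

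Leaving out 1 library at a time, the counts of members without overlap ran from 14 to 17, 6 to 14 and 3 to 6 in the 3 comparisons, members called relative to list length from 0 to 1 for Tbx1-Cre cKO against each control, members called in width from 0 to 2, and the 3 region counts from 29 to 41, 24 to 40 and 4 to 10. The share of all genes was 22.2% at the upper end of 6 to 14 and 17.9 or 13% at that of 3 to 6. At the upper end of the calls relative to list length it was 4.74% against Tbx1-Cre Ctrl and 3.06% against Mesp1-Cre Ctrl. For the calls in width it was 0.218%, and the share at the 17 is not given here. With the replicate block, limma called 0 members in distal peaks and 0 in width. The members lower in every same-numbered pair were 16, 10 and 7 (28.5, 16.7 and 10.9% of genes), but the shared numbers were not taken as pairs. Scalings by the distal list, counts per 10000 distal peaks, summed widths and regions covered to at least 50% (31, 25 and 3 regions, or 48, 37.8 and 10.7% of all) were chosen after seeing the data. A planned overlap of 50% of the narrower region could change nothing, because each peak lies within its merged region. The region counts under these settings can be out of other numbers of regions than in the main results, so they are not shares of those.

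Unknown depth, list lengths that differ by group and 3 libraries per group limit these results.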
